A study of Mus musculus with 8 samples.

Results

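Transcripts of the interleukin 17 (IL-17) cytokines and of their regulators were compared between NK cells of mouse spleen sorted as positive or negative for ChAT-eGFP, a fluorescent reporter of the gene for choline acetyltransferase, which makes acetylcholine. The set holds 9 genes: the cytokines Il17a, Il17f, Il21 and Il22, the receptors Il23r, Il1r1, Ccr6 and Il17re, and the transcription factor Ahr. They were chosen by name, with their differences between these 8 arrays already known, so their values are a description, and the calls they received in the fit across all genes are counted once, as description too. The members were found as the probes whose RefSeq accession maps to one of these symbols. That gave 10 probes of 55681 on the array, for 9 of 20284 genes named there. Ahr had 2 probes and the other 8 members 1 each. A probe was tested across the whole array if it was well above background, as the scanner software judged it, on at least 4 of 8 arrays. By that filter 7 of the 9 members were among the 13607 genes tested. These 7 were well above background on all 8 arrays, so none of them passed through 1 group alone. Il21 and Il17re did not pass.

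IL-17A and IL-17F are secreted by a set of lymphocytes that includes type 17 helper T cells, gamma delta T cells, group 3 innate lymphoid cells and some NKT cells, and act on epithelial and stromal cells, which respond with chemokines that draw neutrophils. Interleukin 23 and interleukin 1 drive their production, while the aryl hydrocarbon receptor (Ahr) acts above all on interleukin 22. Conventional NK cells of the spleen are known mainly as producers of interferon gamma and of cytotoxic granules.

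Per the series' design text, NK cells were enriched magnetically, sorted into reporter-positive and reporter-negative cells, and pooled from 2 to 4 mice for each sample. Both groups, ChAT+ and ChAT-, have 4 pools, and each pool was hybridised to 1 one-colour (Cy3) Agilent array after amplification of its RNA. The labels give no strain, age, sex or treatment for either group, and do not say whether 1 mouse gave cells to a ChAT+ and a ChAT- pool. Nothing in them states that pools were of separate mice, so p-values cover only the spread over these samples, part of which may be technical. All 4 ChAT+ arrays lay on 1 slide and all 4 ChAT- arrays on another, scanned apart. Slide and group therefore cannot be told apart in the differences given here. Between 50.2% and 63.2% of spots per array were well above background and 0 were saturated. Levels are log2 signals relative to the array's 75th percentile, where 0 is a signal equal to that percentile, and levels of different probes are not compared. In such bulk pools, more cells of a type and more RNA per cell cannot be told apart.

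Chat was read first as a check of the labels. Its 1 probe gave 3.70, 4.10, 3.72 and 3.48 in ChAT+ replicates 1 to 4 and 2.64, 3.12, 2.32 and 2.51 in ChAT- replicates 1 to 4. Every ChAT+ array was above every ChAT- array, but ChAT- pools also held signal well above background on 4 of 4 arrays. The log2 fold change was 1.10 (SE 0.20, limma adjusted p = 0.0201), and the two-sided exact permutation test over the 8 values gave p = 0.0286, the smallest that 70 splits allow. That call was lost without ChAT+ replicate 3 (limma adjusted p = 0.0625), without ChAT- replicate 4 (0.0648) and when dim probes were kept (0.053).

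Of the members, the 2 cytokines for which the pathway is named had the widest separation between the groups. Il17f, whose product pairs with itself or with IL-17A, had log2 signals of 2.19, 2.44, 1.86 and 2.09 in ChAT+ replicates 1 to 4, and of -1.62, -2.13, -1.35 and -1.28 in ChAT- replicates 1 to 4. The ranges were 3.14 apart at their nearest points, and the spread within a group was smaller than that in both. The means were 2.15 ± 0.24 and -1.59 ± 0.38 (SD, n = 4 each), a difference of 3.74 (SE 0.23) or 13.4-fold. Il17a had log2 signals of 0.44, 0.82, 0.81 and 1.37 in ChAT+ pools and of -2.21, -3.20, -1.77 and -2.10 in ChAT- pools. ChAT+ replicate 4 was the highest of all and ChAT- replicate 2 the lowest, with a gap of 2.22 between the groups. The means were 0.86 ± 0.38 and -2.32 ± 0.62 (SD, n = 4 each), a difference of 3.18 (SE 0.36) or 9.06-fold. Both probes were well above background on 4 of 4 ChAT- arrays as well, so the groups differed in the level of these transcripts and not in whether they were detected. The unscaled processed intensity of Il17a ran from 3092 to 6807 in ChAT+ and from 227 to 915 in ChAT- pools, and that of Il17f from 6695 to 11181 and from 478 to 1227. The Il17f difference exceeded that of Il17a by 0.56 (SE 0.28) on the log2 scale. By size, the differences of Il17f and Il17a ranked 2 and 3 from the highest among 13607 genes.

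Il17a and Il17f lie on the same chromosome, on opposite strands. Their promoters are shown because these 2 genes had the widest separation of the members, a step known when they were chosen. Within the ChAT+ pools Il17a was highest in replicate 4 and lowest in 1, and Il17f highest in 2 and lowest in 3. Both were lowest in replicate 2 of the ChAT- pools, with Il17a highest in replicate 3 and Il17f in 4. Shared regulation of the 2 genes was not tested. The windows are the 250 bases before each gene's start, from RefSeq on GRCm38.p6, printed 5′ to 3′ on the gene's strand, at chr1:20730655-20730904 (+) for Il17a and chr1:20784271-20784520 (-) for Il17f. Capitals mark matches to any of 5 searched motifs on either strand, which did not overlap in these windows.
Il17a: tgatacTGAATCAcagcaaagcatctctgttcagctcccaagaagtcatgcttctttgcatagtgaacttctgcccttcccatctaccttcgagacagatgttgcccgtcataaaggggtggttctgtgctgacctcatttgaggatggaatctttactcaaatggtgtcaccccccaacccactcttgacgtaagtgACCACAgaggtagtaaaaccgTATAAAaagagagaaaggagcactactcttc
Il17f: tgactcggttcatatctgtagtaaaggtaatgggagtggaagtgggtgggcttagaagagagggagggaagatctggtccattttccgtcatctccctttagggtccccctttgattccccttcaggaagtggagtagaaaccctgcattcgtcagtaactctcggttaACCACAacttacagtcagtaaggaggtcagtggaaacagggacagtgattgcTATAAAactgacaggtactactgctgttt
Both windows held the RUNX core TGTGGT on the opposite strand, which 14.0% of 32851 promoter windows of the same length held on either strand, at 52 to 47 bases in Il17a and 81 to 76 in Il17f. TATAAA, the TATA box, stood 31 to 26 bases before the start of Il17a and 29 to 24 before that of Il17f, against 12.4% of windows with a match anywhere. Of these windows, that of Il17a alone held TGANTCA, a site of AP-1 and BATF, which 6.75% of windows held, and neither held TTCNNNGAA, a STAT site (7.02%), or GCGTG, the core that the aryl hydrocarbon receptor binds (28.2%).

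In all, 8 of the 9 members had 10 such windows, with Ahr not among them. TTCNNNGAA was found in 1 of the 2 windows of Ccr6, with 2 matches. GCGTG was found in Il21 and in 1 of the 2 windows of Il1r1, TATAAA in Il22, and none of the 5 motifs in Il17re or Il23r. A match says only that these letters are there.

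Il22, which acts on epithelial cells and is made by many of the same lymphocytes, was higher in ChAT+ pools by much less. Its log2 signals were 4.92, 5.46, 4.45 and 4.65 in ChAT+ and 4.30, 4.24, 3.63 and 3.50 in ChAT- pools. The groups did not overlap, but only 0.15 lay between ChAT+ replicate 3 and ChAT- replicate 1, less than the SD within either group. The means were 4.87 ± 0.44 and 3.92 ± 0.41 (SD, n = 4 each), a difference of 0.95 (SE 0.30) or 1.93-fold. Some mouse strains carry a near-identical copy of Il22, and this probe may read both, so the source of its signal is uncertain. Il21, a cytokine that supports type 17 cells, was well above background on 0 of 4 ChAT+ and 0 of 4 ChAT- arrays. Its log2 signals, -6.51 to -5.48 in ChAT+ and -7.25 to -6.12 in ChAT- pools, overlapped, and no fold is given.

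Among the receptors, Il1r1, the signalling receptor for interleukin 1, had log2 signals of -2.97, -2.63, -2.80 and -2.03 in ChAT+ and -4.04, -4.16, -3.91 and -4.16 in ChAT- pools. The 4 ChAT- arrays lay within 0.25 of each other and every ChAT+ array was at least 0.94 above them. The means were -2.61 ± 0.41 and -4.07 ± 0.12 (SD, n = 4 each), a difference of 1.46 (SE 0.21) or 2.75-fold. Ccr6, the receptor for the chemokine CCL20 and carried by many cells that make IL-17 as well as by B cells, gave 3.30, 3.15, 3.46 and 3.14 in ChAT+ and 2.84, 2.27, 2.41 and 2.58 in ChAT- pools. The groups were 0.30 apart, with ChAT- replicate 1 nearest to the ChAT+ pools. The means were 3.26 ± 0.15 and 2.53 ± 0.25 (SD, n = 4 each), a difference of 0.74 (SE 0.14) or 1.67-fold.

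Il23r, which pairs with IL-12R beta 1 to form the receptor for interleukin 23, had log2 signals of -3.58, -1.84, -2.12 and -1.49 in ChAT+ and -3.91, -2.98, -3.57 and -4.14 in ChAT- pools. ChAT+ replicate 1 lay below 2 ChAT- arrays, replicates 2 and 3, while the other 3 ChAT+ arrays were above all 4. The means were -2.26 ± 0.92 and -3.65 ± 0.50 (SD, n = 4 each), a difference of 1.39 (SE 0.53) or 2.62-fold, and 1.83 without ChAT+ replicate 1. Il17re, a receptor subunit for IL-17C, was well above background on 3 of 4 ChAT+ and 0 of 4 ChAT- arrays. Its log2 signals were -4.78, -3.91, -5.03 and -4.43 in ChAT+ and -7.37, -6.43, -6.28 and -6.79 in ChAT- pools, with no overlap. Since the ChAT- values are near background, the difference is given as a bound, at least 1.68-fold higher in ChAT+ pools. For the bound, each ChAT- array was given the lowest signal of any probe well above background, or the probe's own where that was higher, and the group means were compared. The measured means were -4.54 ± 0.49 and -6.72 ± 0.49 (SD, n = 4 each), 2.18 (SE 0.34) apart, and 0.93 apart after normexp background correction.

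Ahr, a ligand-activated transcription factor, did not separate the groups by either probe. The brighter probe gave 1.28, 0.59, 0.71 and 1.33 in ChAT+ and 1.17, 0.49, 0.91 and 0.69 in ChAT- pools, with a difference of 0.16 (SE 0.24) or 1.12-fold. Replicate 2 was the lowest array of each group. That difference changed sign, to -0.026, under normexp background correction. The dimmer probe, well above background on 3 of 4 arrays in each group, ran from -5.11 to -4.35 in ChAT+ and from -5.96 to -4.38 in ChAT- pools and differed by 0.42 (SE 0.37).

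**Figure D1:**
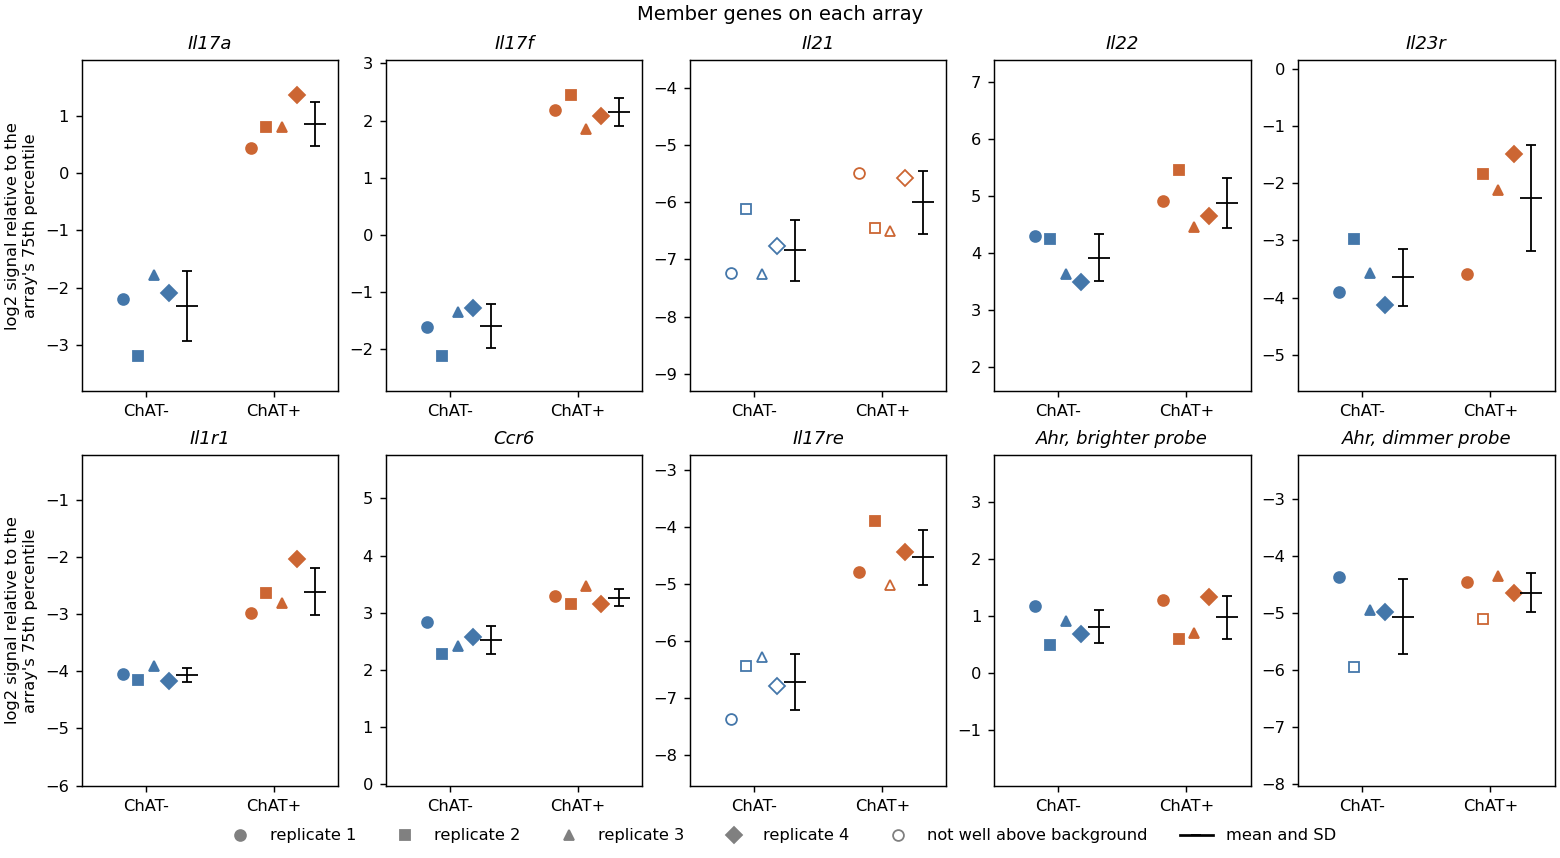
Log2 signal relative to the array's 75th percentile for each member probe in ChAT- (blue) and ChAT+ (orange) pools, with replicates by shape, open symbols for spots not well above background, and mean with SD at the right; every panel spans the same log2 range. Il17f and Il17a are 3.14 and 2.22 apart between the groups, while Il23r, Il21 and both Ahr probes overlap.

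Of the 7 members tested, 4 were called higher in ChAT+ pools by limma (Il17a, Il17f, Il1r1 and Ccr6), where 2.81% of the 13607 genes were called higher. The groups did not overlap for 5 of the 7, these 4 and Il22, where 9.34% of genes had every ChAT+ array above every ChAT- array and 15.5% did not overlap in either direction. The members were chosen on this contrast, so the counts carry no support of their own. By size, the differences of Il1r1, Il23r, Il22, Ccr6 and Ahr ranked 52, 59, 179, 395 and 4458 from the highest among 13607 genes, and the median gene differed by 0.025. The order of arrays within a group was shared by the members only in part: the highest ChAT+ array was replicate 4 for 4 of the 7, replicate 2 for 2 and replicate 3 for 1. Within the ChAT- pools, replicate 2 was the lowest for 4 and replicate 4 for 3.

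With any 1 array left out, the difference stayed between 3.56 and 3.84 for Il17f, 2.88 and 3.36 for Il17a, 1.27 and 1.58 for Il1r1, and 0.65 and 0.84 for Ccr6. Il22 ranged from 0.76 to 1.09 and Il23r from 1.14 to 1.83 in the same way. Under other scalings, background correction or the authors' deposited log2 table, Il17f ranged from 3.61 to 3.96 and Il17a from 2.96 to 3.40. Il1r1 then ranged from 1.08 to 1.68, Il23r from 1.20 to 1.61, Il22 from 0.95 to 1.17 and Ccr6 from 0.73 to 0.95.

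**Figure D2:**
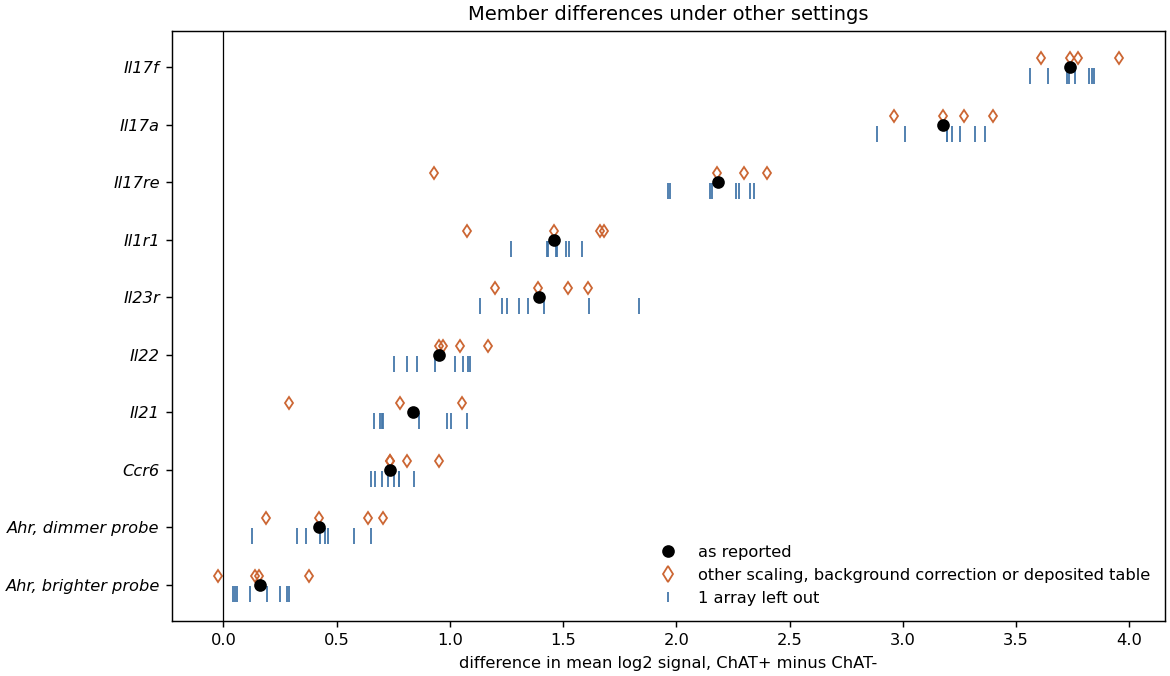
Difference in mean log2 signal, ChAT+ minus ChAT-, for each member probe as reported (black), under other scalings, background correction or the deposited table (orange) and with 1 array left out (blue ticks). The brighter Ahr probe crosses 0, at -0.026, and Il17re spans 0.93 to 2.40.

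Genes with the profile most like Il17a and Il17f over the 8 arrays were found by the root mean square gap between log2 values, each gene centred on its own mean. Each was the nearest to the other of the tested genes compared, which left out antigen receptor segments and provisional symbols, with a gap of 0.44, against a median gap over genes of 1.66 for Il17a and 1.89 for Il17f. Next came Cysltr1, a leukotriene receptor, with gaps of 0.64 to Il17a and 0.69 to Il17f. Ccr4, a chemokine receptor, and Il17rb, the receptor for IL-25, were also among the 5 nearest of both, with gaps of 0.70 and 0.68 to Il17a. The other near genes were Gja1, a gap junction protein, for Il17a (0.66) and Dlg5, a scaffold protein of cell junctions, for Il17f (0.79). Ccr4 and Dlg5 were well above background on 1 of 4 ChAT- arrays each, so their differences of 2.77 and 2.56 rest on signal near background. The measure mostly follows the step between the 2 groups, which the arrays share with their slides.

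The rest of the pathway was read from a list of 74 genes by role, which holds none of the 9 members. Of these, 73 were on the array and 65 were tested. Limma called 2 higher (Il17rb and Maf), 1 lower (Cebpd) and left 62 uncalled, so 4.62% were called, where 5.95% of all tested genes were. The median log2 fold change of the list was -0.014, against 0.025 over all genes. At an unadjusted p under 0.05, 8 were higher and 5 lower. Such p-values were common over all tested genes: Tiparp, for example, had a limma p of 0.0413 and an adjusted p of 0.182. The share of all genes at this level was not computed. Counts at an unadjusted p under 0.05, here and below, are therefore not read as an excess. Scaling by the array median in place of the 75th percentile moved the median of all genes to 0.24, so small differences below are to be read against that shift.

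Of the family's receptors, Il17rb rose, and of 3 tested it was the only one called. Its log2 signals were -0.98, -1.96, -2.06 and -1.21 in ChAT+ and -3.72, -4.06, -4.11 and -4.39 in ChAT- pools. The groups did not overlap, and the log2 fold change was 2.52 (SE 0.26, limma adjusted p = 0.00296). Leaving out any 1 array kept the call of Il17rb, with adjusted p of at most 0.0136 by limma. A second Il17rb probe was well above background on 0 of 8 arrays. Il17rb is a receptor of IL-25 and IL-17B. At an unadjusted p under 0.05, 1 of the 3 had a higher and 1 a lower mean. The latter was Il17rc, a receptor chain for IL-17A and IL-17F, which had log2 signals of -4.45, -2.44, -3.94 and -4.40 in ChAT+ and -2.06, -2.20, -3.07 and -2.86 in ChAT- pools. ChAT+ replicate 2 lay among the ChAT- arrays and the other 3 ChAT+ arrays below them all. Il17rc differed by -1.26 (SE 0.44, limma adjusted p = 0.125), by -0.26 on its other probe, and by -1.71 without ChAT+ replicate 2, where it was called (limma adjusted p = 0.0181). The family's other ligands did not follow Il17a and Il17f: Il17b and Il17c were well above background on 0 of 8 arrays, and neither of the 2 tested was called, Il17d at a log2 fold change of -0.082 (limma adjusted p = 0.781) and Il25 at -0.17 (0.745). The signs of these 2 turned under median scaling, to 0.14 and 0.047. Il25 was well above background on 2 of 4 ChAT+ and 3 of 4 ChAT- arrays.

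Of 7 transcription factors tested, 1 was called higher, and 3 had an unadjusted p under 0.05 with a higher mean and 0 with a lower one. Maf, a factor of type 17 and other T cells, gave 1.91, 1.94, 1.45 and 2.06 in ChAT+ and 1.18, 1.34, 1.22 and 1.24 in ChAT- pools. The groups were separate, and Maf rose by 0.60 (SE 0.15, limma adjusted p = 0.0488). The Maf call was lost without any 1 array other than ChAT+ replicate 3, with adjusted p up to 0.117, without ChAT- replicate 4. It was also lost under median scaling (0.0512), quantile normalization (0.0702) and normexp (0.101), when dim probes were kept (0.107) and when a filter at 1 array was used (0.0653).

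Of 8 genes of signalling below the receptors, Cebpd, a transcription factor that IL-17 induces in responding cells, was the 1 called. Its log2 signals were -2.49, -1.90, -2.40 and -2.12 in ChAT+ and -1.73, -1.11, -1.46 and -1.40 in ChAT- pools. It fell by 0.80 (SE 0.18, limma adjusted p = 0.0368), and the groups did not overlap. That call was lost without ChAT+ replicate 1, 3 or 4 or ChAT- replicate 2, 3 or 4, with adjusted p up to 0.108, without ChAT+ replicate 3. It was also lost under median scaling (0.15), when dim probes were kept (0.083) and when a filter at 1 array was used (0.0529).

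None of the remaining roles held a call by limma. Of 6 cytokines that induce IL-17 producers, none had an unadjusted p under 0.05, and the brightest were Il1b at a log2 fold change of 0.26 (SE 0.31) and Il6 at -0.060 (SE 0.29), a sign that turned under median scaling (0.16). Of 12 receptors of these signals, 2 had an unadjusted p under 0.05 with a higher mean and 0 with a lower one. Il12rb1, the partner chain of Il23r, differed by -0.13 (SE 0.21) by its brighter probe, with a sign that turned under median scaling (0.089), and by -0.75 (SE 0.35) by its other probe, while Il23r differed by 1.39. Tgfbr2, a receptor chain for transforming growth factor beta, differed by -0.062 (SE 0.15), and by 0.16 under median scaling.

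Of 8 factors that restrain the pathway, 0 had an unadjusted p under 0.05 with a higher mean and 1 with a lower one. Ets1 had a log2 fold change of -0.23 (SE 0.13) by its brighter probe, and differed by 0.055 (SE 0.27) by its other probe. Socs3, a feedback inhibitor of STAT signalling, had a log2 fold change of -0.11 (SE 0.20), which turned to 0.10 under median scaling. Of 6 partner cytokines and interleukin 22 receptor genes tested, none had an unadjusted p under 0.05. Ifng, the hallmark cytokine of NK cells, differed by -0.20 (SE 0.17, limma adjusted p = 0.508), and by 0.019 under median scaling. Lta, a cytokine of the tumour necrosis factor family, differed by -0.11 (SE 0.18), and by 0.11 under median scaling. The receptor genes Il22ra1 and Il22ra2 were well above background on 0 of 8 arrays.

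Of 6 partners and targets of the aryl hydrocarbon receptor, 2 had an unadjusted p under 0.05 with a higher mean and 1 with a lower one. Tiparp, a target that inhibits the receptor, differed by 0.35 (SE 0.15, limma adjusted p = 0.182) and Arnt, the partner with which the receptor binds DNA, by 0.66 (SE 0.23, 0.118) by its brighter probe and 0.26 by its other probe. Of 7 genes induced by IL-17 in responding cells, 0 had an unadjusted p under 0.05 with a higher mean and 1 with a lower one. The neutrophil proteins S100a9 and Lcn2 were the brightest, with log2 fold changes of -1.44 (SE 0.66) and -0.95 (SE 0.35) and limma adjusted p of 0.215 and 0.142.

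**Figure D3:**
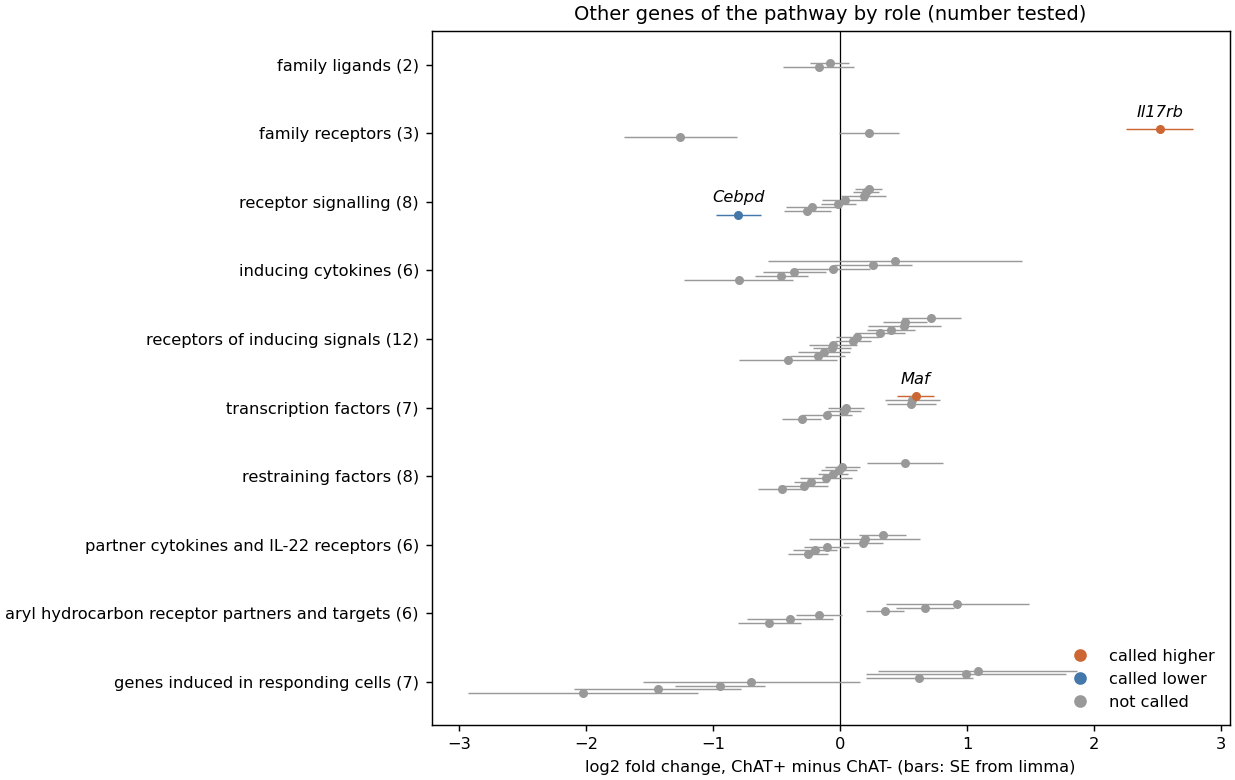
Log2 fold change, ChAT+ minus ChAT-, with its SE from limma, for 65 tested pathway genes other than the 9 members, by role, with the number tested in brackets. Il17rb (2.52), Maf (0.60) and Cebpd (-0.80) are the 3 called genes.

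Markers of the labelled cell type and of other cells that the sort could hold were read in the same fit. All 12 NK cell markers on the array were tested, 3 were lower and 0 higher in ChAT+ pools (at an unadjusted p under 0.05, 10 were lower and 0 higher), and their summed level ran from 134 to 195 times the array's 75th percentile in ChAT+ and from 209 to 245 in ChAT- pools. Klrb1c, which encodes NK1.1, fell by 1.60 (SE 0.13, limma adjusted p = 0.00103) and Klrk1, which encodes NKG2D, by 1.14 (SE 0.15). Prf1, the pore-forming protein perforin, fell by 0.62 (SE 0.15, limma adjusted p = 0.048), a call lost without any 1 array other than ChAT+ replicate 2, with adjusted p up to 0.132, without ChAT+ replicate 3. Under median scaling Prf1 differed by -0.40 (limma adjusted p = 0.255), and its call was also lost under quantile normalization (0.0725) and normexp (0.0602), when dim probes were kept (0.105) and when a filter at 1 array was used (0.0649). Without ChAT+ replicate 2, 5 NK cell markers were lower.

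Of 7 tested markers of gamma delta T cells that make IL-17, 3 were higher and 0 lower, with a median log2 fold change of 0.60 and a summed level of 6.16 to 8.59 in ChAT+ against 5.05 to 5.99 in ChAT- pools. They were Maf, which also stands in the pathway list, Blk, a kinase that B cells express too, and 5830411N06Rik (Scart2), a scavenger receptor of these T cells. The receptor rose by 1.85 (SE 0.20, limma adjusted p = 0.00296), and by 2.03 on its other probe. Blk rose by 1.01 (SE 0.21, limma adjusted p = 0.0299), a call lost without ChAT+ replicate 1, 3 or 4 or ChAT- replicate 3 or 4 (adjusted p up to 0.0876, without ChAT+ replicate 3), under median scaling (0.056) and when dim probes were kept (0.0705). At an unadjusted p under 0.05, 4 of these markers had a higher mean and 1 a lower one. The lower one was Etv5, a transcription factor, at -0.40 (SE 0.12, limma adjusted p = 0.0882), with no overlap between the groups. Sox13, a transcription factor of these cells, was not tested, being well above background on 0 of 4 ChAT+ and 1 of 4 ChAT- arrays. The number of these markers called was 1 under median scaling, with no filter on dim probes, and without ChAT+ replicate 1 or 4 or ChAT- replicate 3 or 4.

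Of 12 general T cell markers, limma called none (at an unadjusted p under 0.05, 1 was higher and 1 was lower), with a median of -0.021 and a summed level of 44.9 to 73.3 in ChAT+ against 53.1 to 72.7 in ChAT- pools. Without ChAT+ replicate 2, 1 was called lower. Thy1 differed by -0.29 (SE 0.19) and Cd3d by 0.057 (SE 0.28), and the sign of Cd3d turned with array weights (-0.075) and without ChAT+ replicate 2 (-0.19). Of 6 NKT cell markers limma called none (at an unadjusted p under 0.05, 1 was higher and 0 were lower), with summed levels of 24.9 to 39.3 and 20.5 to 30.5. The brightest were Cxcr6 at a log2 fold change of 0.66 and Icos at -0.083, the latter 0.13 under median scaling. Of 9 markers of group 3 innate lymphoid cells limma called none (at an unadjusted p under 0.05, 1 was higher and 2 were lower), and their summed levels overlapped, at 52.7 to 71.4 and 50.5 to 65.4. The brightest were Id2, a regulator of innate lymphoid cells, at -0.26 (SE 0.18), and Lta.

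Of 11 markers of group 2 innate lymphoid cells, 3 were higher: Il17rb, the cytokine gene Il13 (1.50, SE 0.21, limma adjusted p = 0.0088) and the growth factor gene Areg (2.60, SE 0.37). At an unadjusted p under 0.05, 5 had a higher mean and 1 a lower one. Their summed levels were 36.2 to 50.6 in ChAT+ and 35.6 to 43.2 in ChAT- pools. Of 11 B cell markers, 5 were higher (7 at an unadjusted p under 0.05), with a median of 0.68 and a summed level of 110 to 142 in ChAT+ against 74.0 to 96.9 in ChAT- pools, which did not overlap. Pax5, Bank1 and Ebf1 rose by 1.31, 1.12 and 1.03 (SE 0.15, 0.15 and 0.17). With no filter on dim probes 3 B cell markers were called.

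Of 6 basophil or mast cell markers, 4 were lower (6 at an unadjusted p under 0.05), with a summed level of 0.589 to 3.23 in ChAT+ against 7.54 to 39.4 in ChAT- pools. The granule protease gene Mcpt8 fell by 4.04 (SE 0.68) and Prss34 by 4.95 (SE 0.96), and Cd200r3, well above background on 0 of 4 ChAT+ arrays, was at least 15.2-fold lower. Ms4a2, a chain of the high-affinity IgE receptor, was well above background on 0 of 4 ChAT+ and 3 of 4 ChAT- arrays and was not tested. The number called was 2 without ChAT+ replicate 3 or ChAT- replicate 3, with no filter on dim probes or with one at all 8 arrays, and 1 without ChAT- replicate 4, where Mcpt8 had a limma adjusted p of 0.0547 and Prss34 one of 0.0707. Of 6 myeloid markers limma called none (at an unadjusted p under 0.05, 1 was higher and 0 were lower), with summed levels of 41.6 to 68.7 and 68.0 to 92.1. Itgam, the brightest, differed by -0.25 (SE 0.15) by its brightest probe, and by -0.71 (SE 0.37) and -0.77 (SE 0.36) by its other probes. A summed level follows the brightest probes of its list most, here that of Itgam. In the same way Thy1 was the brightest of the T cell list and Id2 of that of group 3 innate lymphoid cells. A summed level does not measure how many such cells a pool held. In each of these lists every gene counted on the array was well above background on at least 1 of 8 arrays. The part of any of these cells in the member differences was not tested.

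**Figure D4:**
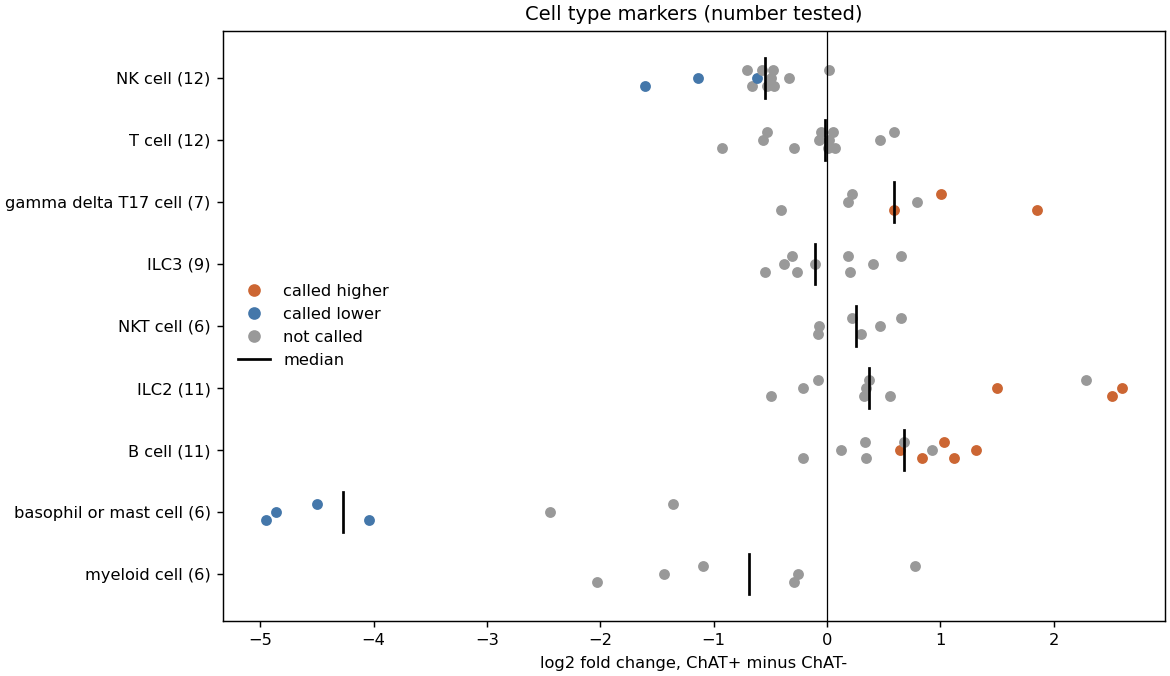
Log2 fold change, ChAT+ minus ChAT-, of each tested marker by cell type, with the number tested in brackets and the list's median as a bar. Medians run from -4.27 for basophil or mast cell markers to 0.68 for B cell markers, and that of NK cell markers is -0.55.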

How the data were processed

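RNA of 4 ChAT+ and 4 ChAT- pools was measured on 8 arrays. The authors' scanner files came from Agilent Feature Extraction 11.5.1.1, per the file headers. Their processed intensity has the background subtracted on each array, with no scaling across arrays. The authors' deposited table holds log2 values for 31942 probes, which followed log2 of that intensity less a constant per array near its 75th percentile (column medians -0.72 to -0.63). Control spots and 1344 spot values marked as outliers were left out, 51 probe values with only such spots were kept, and the spots of a probe were averaged. Of the probes, 26762 were named through an unversioned RefSeq accession (GRCm38.p6 table) and 28919 were not named here. Values are log2 intensity minus each array's 75th percentile.

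The brightest probe stood for a gene. Genes were fitted on all 8 arrays, with no block, by lmFit and eBayes of limma 3.58.1 (R 4.3.3). Tests were two-sided, p-values were adjusted over all 13607 genes (Benjamini-Hochberg), and a gene was called at adjusted p under 0.05. The SE of a member difference comes from the SDs of the 2 groups. The procedure was also run on simulated data with independent noise for each array. That simulation held no slide effect and no likeness of same-numbered arrays, so it could not show how these bear on the calls. The members and the lists were chosen with earlier results of these data known. Genes named are the members, Chat, called pathway genes, for each role without a call the 2 brightest, for each cell list up to 3 called genes or the 2 brightest, and the 5 nearest profiles to Il17a and Il17f. Il17rc, Etv5, Sox13, Ms4a2 and pathway genes not well above background on any array were named after their values were seen. As alternatives, other scalings, a normexp background correction on the median spot signal (offset 50), filters on dim probes, array weights, another variance model, a mean over probes, the replicate block and the deposited table were run, and each array was left out in turn. The number of arrays limits the precision. A few genes of the pathway and marker lists are not reported here and were left out of the lists' counts.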

Additional observations from a re-analysis of the deposited data

Results flagged for a closer look

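The members, Chat, the named genes of the lists that were tested and the nearest profiles were checked in each group of 4 arrays for 1 array far from the other 3, by Dixon's test at the 95% level. Of 106 such groups, 5 had one, where chance gives about 1 in 20, and no member of the interleukin 17 set was among them. Socs3 was low in replicate 1 of both groups, at 2.77 in ChAT+ (3.30 next) and 2.83 in ChAT- (3.44 next). Prf1 and Id2 were high in ChAT+ replicate 2, at 4.87 (4.40 next) and 4.79 (4.31 next), and Prss34 was low in that array, at -5.34 (-1.77 next).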

How the results depend on the processing

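All 9 members kept a higher mean in ChAT+ pools under each alternative for which their differences were computed, except the brighter Ahr probe under normexp (-0.026). Il21 was near background in both groups and Il17re in ChAT- pools, so for these 2 the direction rests on signal near background. Over all genes, 382 were higher and 428 lower. Median scaling gave 212 and 119 (64.0% of calls higher, against 47.2% as reported), no filter on dim probes 98 and 126, and array weights 577 higher. Leaving out each array in turn gave 94 to 305 higher and 116 to 429 lower. Of the pathway list, 1 to 2 genes were then higher and 0 to 2 lower, against 2 and 1 with all arrays. Under median scaling, with no filter or with a filter at 1 array, 1 was higher and 0 were lower, and under quantile normalization or normexp 1 was higher. Chat, at 1.10, ranged from 0.99 to 1.26 with 1 array left out, and its call was lost with no filter on dim probes at an unchanged 1.10, without ChAT+ replicate 3 (1.11) and without ChAT- replicate 4 (1.06). Signs turned under median scaling for Il17d (0.14), Il25 (0.047), Il6 (0.16), Il12rb1 (0.089), Tgfbr2 (0.16), Socs3 (0.10), Ifng (0.019), Lta (0.11) and Icos (0.13), for Il25 under quantile normalization (0.13), and with array weights for Il6 (0.017) and Cd3d (-0.075). With 1 array left out, Il25 ranged from -0.39 to 0.0054, Il6 from -0.28 to 0.12, Tgfbr2 from -0.12 to 0.040, Socs3 from -0.28 to 0.030, Icos from -0.19 to 0.0075 and Cd3d from -0.19 to 0.23. Where no cause is given, the cause was not tested. The slide could not be fitted as a block, since each slide held 1 group.

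The replicate numbers equal the position on the slide, and same-numbered arrays deviated from their group means with correlations of 0.54, 0.66, 0.52 and 0.032. Because of the last value they were not taken as pairs. Arrays numbered 1, 2 and 3 each correlated best with the array of the same number, and a shared source of these was not tested. If they share one, the limma p-values given here leave that pairing out. With the replicate block, 1002 genes were higher and 1344 lower, and 7 pathway genes higher and 6 lower. Of the markers, 7 NK cell genes were then lower (3 as reported), and where none was called as reported, 1 higher and 2 lower of the T cell list, 1 higher and 3 lower of the myeloid list, and 1 higher each of the ILC3 and NKT lists. The arrays numbered 4 correlated best with an array numbered 3 of the other group. Probes near background, such as those of Il17re and Il21, limit what these arrays measure.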
